A study of Mus musculus with 9 samples.

Results

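The expression of 4 chemokines (Ccl3, Ccl4, Ccl5 and Cxcl10) and 6 chemokine receptors (Ccr1, Ccr2, Ccr7, Cxcr2, Cxcr3 and Cxcr4) was measured in mouse C1498 leukaemia cells carrying a hairpin against Zeb1. These 10 genes were chosen by symbol among 19572 probe sets with a gene symbol, and each had 1 probe set on the array. C1498 is an established mouse leukaemia line that is used as a model of acute myeloid leukaemia, and Zeb1 is a zinc-finger transcription factor of the epithelial-mesenchymal transition. The groups shZeb1_D and shZeb1_C carried hairpin sequence D or C against Zeb1, and Scr carried a negative control construct. Each group had 3 arrays, named here by the sample numbers of the labels (13 to 15, 10 to 12 and 7 to 9). In all groups the lentivirus also carried GFP, and RNA was taken from GFP-positive cells 2 weeks after an overnight infection. Nothing in the labels tells whether cells of 1 group were infected separately. The spread that p-values rest on may therefore be technical.

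Chemokines are small secreted proteins that guide the migration of leukocytes through G protein-coupled receptors on the cell surface. They are grouped by the spacing of conserved cysteines into the CC, CXC, XC and CX3C families, and many receptors bind several ligands. In leukaemia, the receptor for Cxcl12, Cxcr4, is known for holding blasts in the bone marrow, and Ccl3 and Ccl4 are inflammatory chemokines made by myeloid cells and activated lymphocytes.

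Values are log2 RMA signals, in which array medians lay between 6.97 and 7.16 and the median probe set averaged 7.10. Zeb1, the target of the hairpins, had signals of 9.56, 9.26 and 9.40 in shZeb1_D, of 10.41, 10.01 and 10.34 in shZeb1_C and of 10.52, 10.29 and 10.56 in Scr. It fell with hairpin D by 1.05 ± 0.16 (SE; limma adjusted p = 0.0263) to 48.3% of the Scr level. With hairpin C the log2 fold change was -0.20 ± 0.16 (limma adjusted p = 0.895), or 86.9% of the Scr level, which did not pass the test, so a loss of the target was not shown in the group labelled shZeb1_C. The arrays also shared a pattern across groups. On the leading component of the deviations from the group means, which held 57.9% of their variance, shZeb1_D 14 and 15, shZeb1_C 12 and Scr 8 stood apart from the other 5 arrays. An alternative fit took the set of each array as a covariate. The sets were drawn from the same values that this fit tested. Its p-values are lowered by that choice and are not independent support.

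Read only as levels above or below the median, most lineage markers went against the label of a myeloid line in every group. Of 11 myeloid genes, 3 lay at or above the median level, namely Ptprc (the pan-leukocyte antigen CD45), Mpo and Csf2rb. Spi1, the myeloid transcription factor PU.1, averaged 5.55 ± 0.15 in shZeb1_D, 5.48 ± 0.21 in shZeb1_C and 5.34 ± 0.30 in Scr (SD, n = 3 each). Of 8 measured T cell genes 6 lay at or above the median, and Cd8a (6.44) and Cd8b1 (5.98) averaged below it. Cd3g, a chain of the T cell receptor complex, averaged 15.44 ± 0.07 in shZeb1_D, 15.56 ± 0.14 in shZeb1_C and 15.53 ± 0.06 in Scr. A signal depends on its probes as well as on the RNA, so levels are only placed above or below the median, as a description, and not compared between genes.

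**Figure D1:**
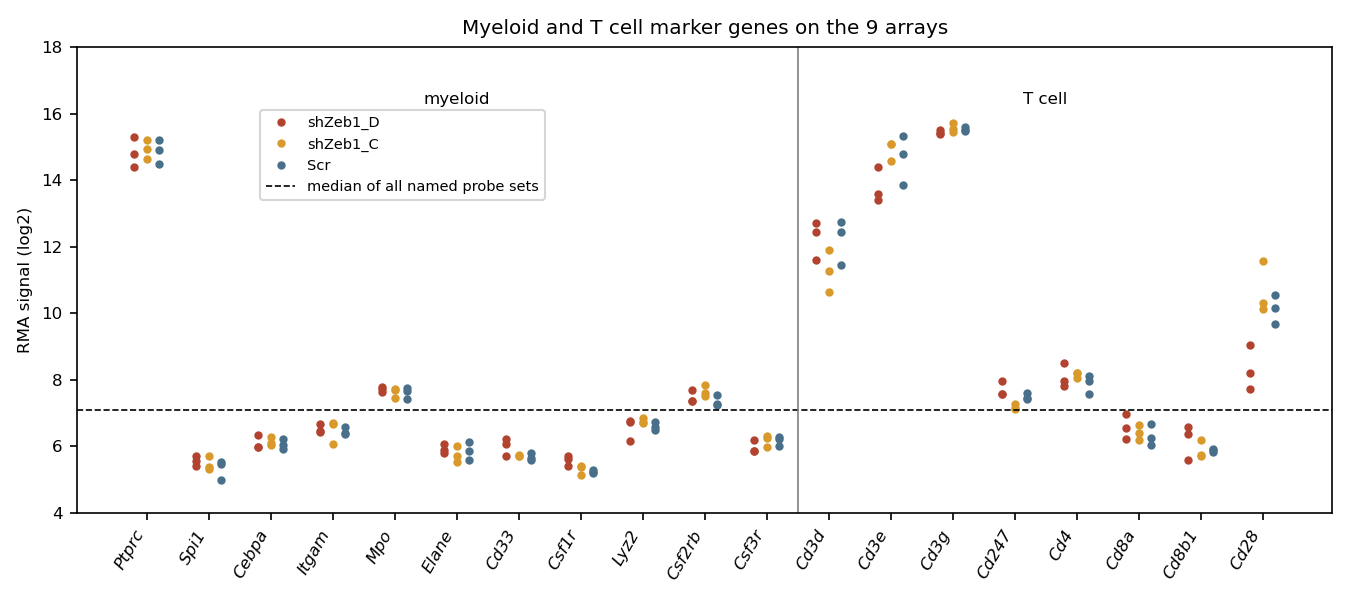
Log2 RMA signal of 11 myeloid and 8 T cell marker genes on each of the 9 arrays (1 point per array; the dashed line is the median of all named probe sets, 7.10). Most myeloid markers other than Ptprc lie near or under the line, and Cd3d, Cd3e and Cd3g lie far above it in all 3 groups.

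RefSeq promoter sequences (assembly GRCm38.p6) were found for 7 of the 10 genes. The 250 bases before the start are printed for Ccr2, Ccl3 and Cxcr2, the genes with the largest fold changes among those whose shZeb1_D and Scr arrays did not overlap. Capitals mark the E-box CACCTG, the sequence known to be bound by Zeb1, read on both strands.
Ccr2 (chr9:124101933-124102182, plus strand): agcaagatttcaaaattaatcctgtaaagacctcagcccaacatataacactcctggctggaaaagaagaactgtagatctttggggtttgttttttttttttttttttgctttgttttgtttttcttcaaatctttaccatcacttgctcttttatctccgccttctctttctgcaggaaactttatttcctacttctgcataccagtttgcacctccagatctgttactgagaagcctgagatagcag
Ccl3 (chr11:83649379-83649628, minus strand): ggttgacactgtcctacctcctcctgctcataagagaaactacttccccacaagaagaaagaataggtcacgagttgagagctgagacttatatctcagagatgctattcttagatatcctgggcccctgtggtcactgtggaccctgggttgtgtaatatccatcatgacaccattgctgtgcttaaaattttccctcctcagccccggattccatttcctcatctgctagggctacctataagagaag
Cxcr2 (chr1:74153744-74153993, plus strand): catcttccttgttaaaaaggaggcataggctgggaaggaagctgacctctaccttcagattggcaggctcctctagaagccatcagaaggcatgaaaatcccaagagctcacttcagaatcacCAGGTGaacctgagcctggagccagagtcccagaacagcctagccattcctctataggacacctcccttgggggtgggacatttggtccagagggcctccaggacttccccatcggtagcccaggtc
The E-box occurred once in the window of Cxcr2 and once in that of Cxcr3, and was absent from those of Ccr2, Ccl3, Ccr1, Cxcr4 and Cxcl10. It was found in 17.2% of 32851 RefSeq promoter windows of this length. The windows of Ccr2 and Ccl3 had a GC content of 37.2% and 46.8%. A second motif, the AP-1 site TGANTCA (both strands, no overlap with the E-box in these windows), occurred once in the window of Cxcl10 and in none of the other 6, against 6.75% of all windows. A match is a description of the letters and not a binding site.

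Hairpin D was set against Scr to ask how the chemokine genes stood where Zeb1 was lower. Ccr2 had the largest difference, at 10.8% of its Scr level, and Ccl3, Cxcr2 and Ccr7 stood at 232%, 148% and 139%, but none passed the test. Limma called 0 of the 10 genes at an adjusted p under 0.05, where it called 0.843% of all 19572 probe sets (0.399% higher and 0.445% lower). At an unadjusted p under 0.05 there were 4 genes, against 13.6% of all probe sets. The 3 arrays of each group did not overlap for 4 of the 10 genes, 3 higher and 1 lower in shZeb1_D. Over all probe sets this share was 17.0% (10.3% higher and 6.65% lower). The median log2 fold change of the 10 genes was 0.055, beside 0.04 for all probe sets. In such bulk RNA, fewer cells that express a gene and less RNA per cell cannot be told apart.

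Hairpin C was set against Scr in the same fit. Ccr2 again had the largest difference and the other 9 genes had log2 fold changes between 0.00 and 0.36. Limma called 0 of 10 genes, where it called 0.945% of all probe sets (0.659% higher and 0.286% lower), and 1 gene, Ccr2, had an unadjusted p under 0.05 (8.77% of all). The arrays did not overlap for 1 gene, Cxcr2, which was higher in shZeb1_C (14.2% of all probe sets did not overlap, 7.50% higher and 6.74% lower). The median log2 fold change was 0.16, beside 0.00 for all probe sets. Between the hairpins, shZeb1_D against shZeb1_C, limma called 0 of 10 genes, where it called 0.848% of all probe sets (0.307% higher and 0.542% lower). Of the 10, Ccl3 alone had an unadjusted p under 0.05 (11.7% of all). The arrays did not overlap for 2 genes, Ccl3 higher and Ccr1 lower in shZeb1_D (15.2% of all, 8.99% higher and 6.26% lower). Both comparisons with Scr share the 3 Scr arrays.

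**Figure D2:**
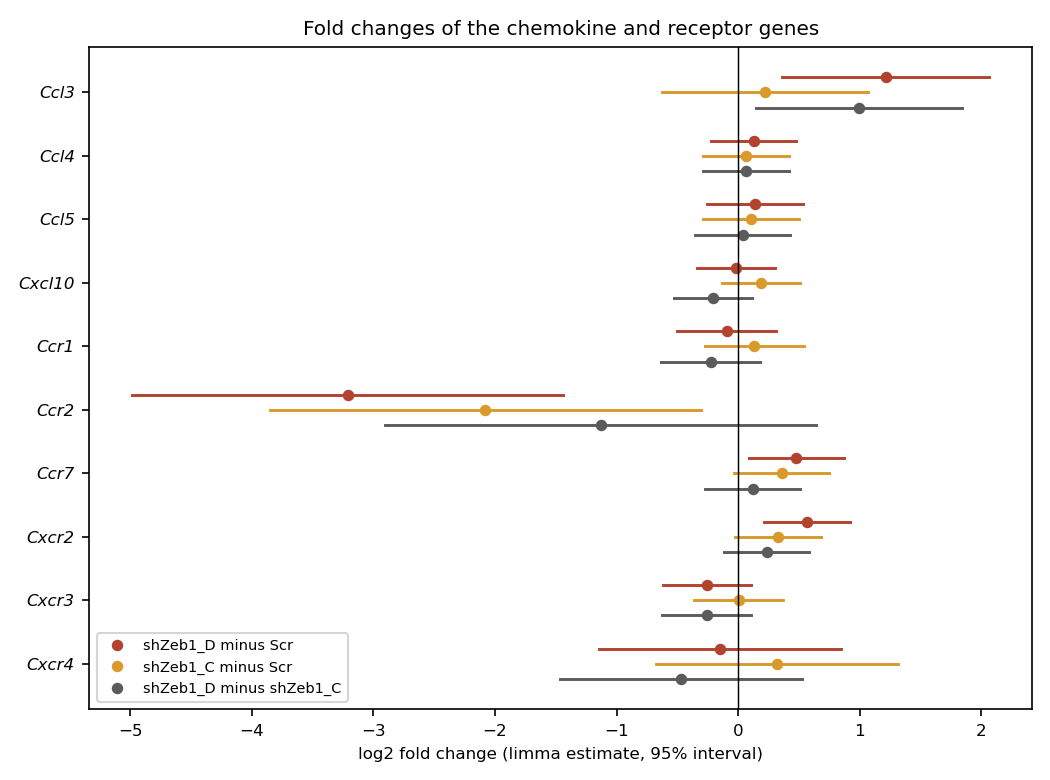
Log2 fold changes of the 10 genes in the 3 comparisons (points, limma estimates; bars, 95% intervals not adjusted for the number of genes; the vertical line marks no difference). Intervals of shZeb1_D minus Scr leave out 0 for Ccl3, Ccr2, Ccr7 and Cxcr2, and those of the other genes in that comparison span it.

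Among the ligands, Ccl3, also known as MIP-1 alpha and a ligand of Ccr1, had signals of 7.51, 8.87 and 7.42 in shZeb1_D, of 6.49, 6.93 and 7.40 in shZeb1_C and of 6.59, 6.73 and 6.84 in Scr. All 3 shZeb1_D arrays lay above every array of the other groups, and array 14 lay farthest. Array 14 was also the highest of the 9 for Gzma, a protease of cytotoxic granules on the NK cell list, at 15.06 against 7.40 and 7.82 on shZeb1_D arrays 13 and 15, and its part in the Ccl3 values was not tested. The log2 fold change of shZeb1_D against Scr was 1.21 ± 0.38 (SE; 95% interval 0.36 to 2.06; limma adjusted p = 0.214), and 0.745 without array 14. Against shZeb1_C it was 0.99 ± 0.38 (limma adjusted p = 0.341). In shZeb1_C against Scr it was 0.22 ± 0.38 (limma adjusted p = 0.993).

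Ccl4, or MIP-1 beta, is the neighbour and close relative of Ccl3, but its shZeb1_D arrays did not stand apart as those of Ccl3 did. It had signals of 6.18, 6.70 and 6.42 in shZeb1_D, of 6.41, 6.33 and 6.37 in shZeb1_C and of 6.36, 6.28 and 6.28 in Scr, so that the groups overlapped. The log2 fold changes against Scr were 0.13 ± 0.16 in shZeb1_D (95% interval -0.23 to 0.48) and 0.06 ± 0.16 in shZeb1_C. Array 14 was the highest of the 9 for both genes, and their likeness over the arrays was not tested.

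Ccl5, or RANTES, a T cell chemokine that binds Ccr1, lay below the median level on all 9 arrays. It had signals of 4.65, 4.62 and 4.15 in shZeb1_D, of 4.45, 4.53 and 4.33 in shZeb1_C and of 4.38, 4.16 and 4.46 in Scr, with log2 fold changes of 0.14 ± 0.17 in shZeb1_D and 0.10 ± 0.17 in shZeb1_C. Cxcl10, an interferon-induced ligand of Cxcr3, also lay below the median level, with signals of 4.71, 4.62 and 4.68 in shZeb1_D, of 5.00, 4.93 and 4.69 in shZeb1_C and of 4.78, 4.55 and 4.73 in Scr. Its log2 fold changes were -0.02 ± 0.14 in shZeb1_D (95% interval -0.34 to 0.30) and 0.19 ± 0.14 in shZeb1_C (95% interval -0.13 to 0.51). At these low signals a change in a transcript near background may not register.

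Among the receptors, Ccr2, the receptor for Ccl2 that draws monocytes to inflamed tissue, had signals of 4.90, 4.85 and 4.99 in shZeb1_D, of 8.14, 5.66 and 4.33 in shZeb1_C and of 8.47, 7.38 and 8.52 in Scr. The shZeb1_D arrays lay close together and far under every Scr array, while the shZeb1_C arrays ran from near the Scr level to under the shZeb1_D level. These low Ccr2 signals lay at the level of Ccl5 (4.15 to 4.65), Ccr1 (4.37 to 4.92) and Cxcl10 (4.55 to 5.00). Near background the size of the difference, the small spread in shZeb1_D and the order of the low arrays are uncertain. The mean was 4.91 ± 0.07 in shZeb1_D, 6.04 ± 1.93 in shZeb1_C and 8.12 ± 0.64 in Scr (SD, n = 3 each). The log2 fold change of shZeb1_D was -3.21 ± 0.79 (SE; 95% interval -4.98 to -1.44), with a limma adjusted p of 0.122. The exact two-sided permutation p was 0.10, the smallest that 3 arrays against 3 allow.

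The call differed between settings. With the 6 arrays of shZeb1_D and Scr alone the adjusted p was 0.0142 at the same fold change. Leaving out shZeb1_C array 10 or 12 gave 0.0244 and 0.041. These settings kept the same shZeb1_D and Scr arrays and changed only the spread behind the test, so they are not separate support. In the fit with the array sets, which were drawn from these same values, the adjusted p was 0.0391 at -2.80. Over all 16 alternatives run for it the limma adjusted p ran from 0.0142 to 0.445 and the fold change from -3.58 to -2.80. It passed the threshold under 5 of the 16 and did not under 11. Within the 5 arrays of the larger set, Ccr2 stood at 4.90 in shZeb1_D, 8.14 and 5.66 in shZeb1_C and 8.47 and 8.52 in Scr. Within the other set it stood at 4.85 and 4.99 in shZeb1_D, 4.33 in shZeb1_C and 7.38 in Scr. A group had only 1 or 2 arrays in a set, so this is a description and the part of the sets was not tested.

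With hairpin C the log2 fold change of Ccr2 was -2.08 ± 0.79 (95% interval -3.85 to -0.31; limma adjusted p = 0.431). It was -3.13 without shZeb1_C array 10, which passed the threshold (limma adjusted p = 0.0301), and -1.22 without array 12. The difference between shZeb1_D and shZeb1_C was -1.13 ± 0.79 (limma adjusted p = 0.628), -0.08 without array 10 and -1.99 without array 12, so the direct comparison rested on single arrays.

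**Figure D3:**
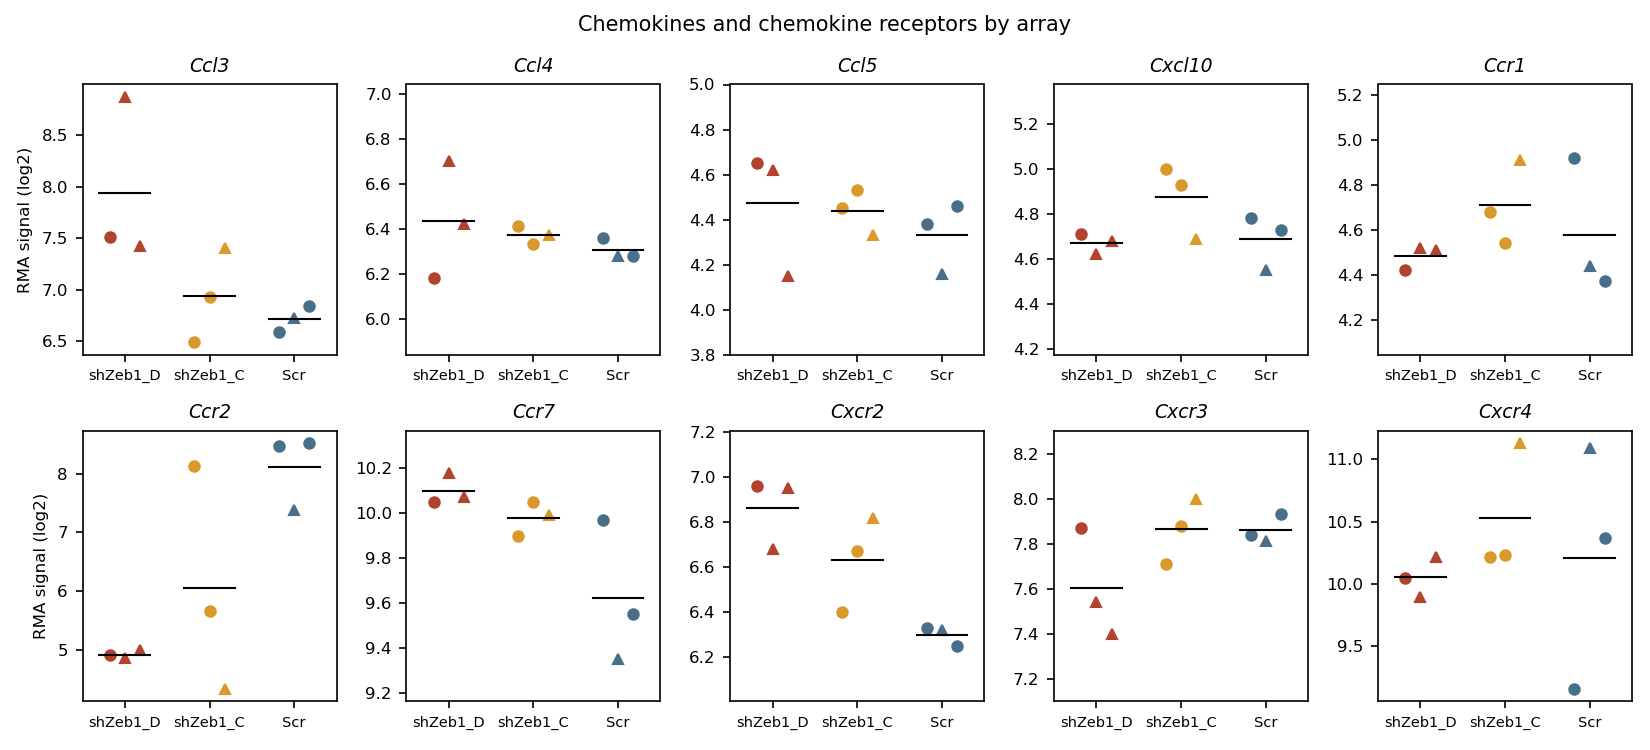
Log2 RMA signal of the 10 genes on every array (points; the horizontal bar is the group mean of 3 arrays; triangles mark shZeb1_D 14 and 15, shZeb1_C 12 and Scr 8; each panel has its own vertical scale, of at least 1.2 log2 units). The shZeb1_D arrays of Ccr2 lie at 4.85 to 4.99, under Scr at 7.38 to 8.52, and the shZeb1_C arrays spread from 4.33 to 8.14.

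Cxcr2, a neutrophil receptor for CXC ligands such as Cxcl1 and Cxcl2, had signals of 6.96, 6.68 and 6.95 in shZeb1_D, of 6.40, 6.67 and 6.82 in shZeb1_C and of 6.33, 6.32 and 6.25 in Scr. Every array of both hairpins lay above every Scr array, although by small steps and under the median level of the array. The log2 fold changes were 0.56 ± 0.16 in shZeb1_D (limma adjusted p = 0.168) and 0.33 ± 0.16 in shZeb1_C (limma adjusted p = 0.621). The hairpins overlapped each other, with a difference of 0.23 ± 0.16.

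Ccr7, which brings T cells and dendritic cells to lymph nodes along Ccl19 and Ccl21, had signals of 10.05, 10.18 and 10.07 in shZeb1_D, of 9.90, 10.05 and 9.99 in shZeb1_C and of 9.97, 9.35 and 9.55 in Scr. The shZeb1_D arrays lay above all Scr arrays and the shZeb1_C arrays overlapped them through Scr array 7. The log2 fold changes were 0.48 ± 0.17 in shZeb1_D (limma adjusted p = 0.275) and 0.36 ± 0.17 in shZeb1_C (limma adjusted p = 0.644).

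Cxcr4 lay well above the median level but varied most within Scr. It had signals of 10.05, 9.90 and 10.22 in shZeb1_D, of 10.22, 10.23 and 11.13 in shZeb1_C and of 9.16, 11.09 and 10.37 in Scr. The Scr arrays alone spanned 1.93, more than the whole range of either hairpin. The log2 fold change was -0.15 ± 0.44 in shZeb1_D, with a 95% interval of -1.15 to 0.85. In shZeb1_C it was 0.32 ± 0.44, with an interval of -0.68 to 1.32. Both intervals span no difference and are not adjusted for the number of genes. They do not give the size of change that limma would call, which was not tested for Cxcr4. The sign of the fold change turned without Scr array 8 in shZeb1_D (0.29) and without Scr array 7 in shZeb1_C (-0.20).

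Cxcr3, a receptor of activated T and NK cells, had signals of 7.87, 7.54 and 7.40 in shZeb1_D, of 7.71, 7.88 and 8.00 in shZeb1_C and of 7.84, 7.81 and 7.93 in Scr. Arrays 14 and 15 lay under all others and array 13 did not. The log2 fold change was -0.26 ± 0.16 in shZeb1_D (95% interval -0.62 to 0.11; limma adjusted p = 0.52) and 0.00 ± 0.16 in shZeb1_C. Ccr1, a monocyte and neutrophil receptor for Ccl3 and Ccl5, lay below the median level on all 9 arrays. Its signals were 4.42, 4.52 and 4.51 in shZeb1_D, 4.68, 4.54 and 4.91 in shZeb1_C and 4.92, 4.44 and 4.37 in Scr. The shZeb1_D arrays lay just under those of shZeb1_C, a difference of -0.23 ± 0.18 (limma adjusted p = 0.672), and both overlapped Scr.

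Of the other chemokines, receptors and atypical receptors, 53 of 55 listed genes were measured and the others were not analysed here. Limma called 0 of the 53 with either hairpin against Scr and 0 between the hairpins. At an unadjusted p under 0.05 there were 8 in shZeb1_D, 3 in shZeb1_C and 6 between the hairpins, where the shares of all probe sets were 13.6%, 8.77% and 11.7%. Their median log2 fold change was 0.09 in shZeb1_D and 0.04 in shZeb1_C, and 11 lay at or above the median level. The arrays did not overlap for 10 genes in shZeb1_D against Scr, 9 of them higher, and for 8 genes in shZeb1_C against Scr, 6 of them higher, where 17.0% and 14.2% of all probe sets did not overlap. Both counts hold Ccl21b and Ccl21c, which have equal values, as 2 genes.

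**Figure D4:**
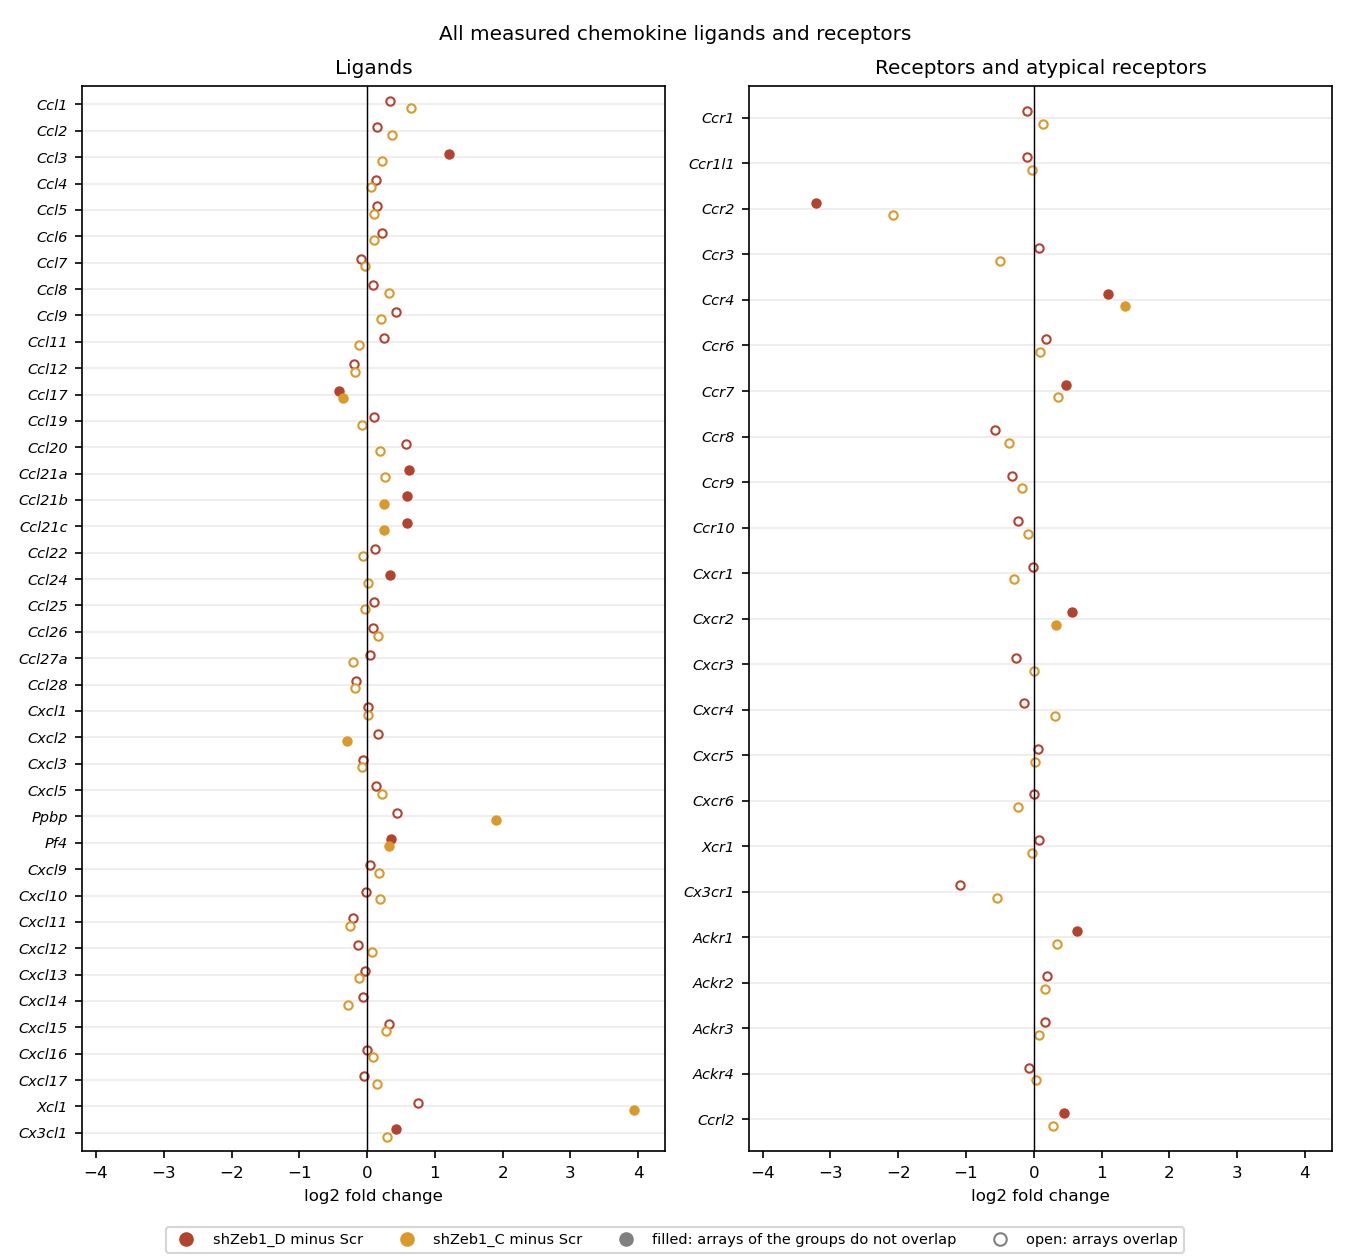
Log2 fold changes of 40 ligands (left) and of 18 receptors and 5 atypical receptors (right) for shZeb1_D minus Scr and shZeb1_C minus Scr (1 point per gene and comparison, limma estimates without error bars; filled points mark groups whose arrays do not overlap). Most points lie near 0, and Xcl1 in shZeb1_C (3.93) and Ccr2 in shZeb1_D (-3.21) lie farthest out.

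Xcl1, or lymphotactin, a chemokine of NK cells and activated T cells, had signals of 7.65, 8.95 and 8.30 in shZeb1_D, of 10.97, 9.89 and 13.57 in shZeb1_C and of 8.03, 7.33 and 7.27 in Scr. All shZeb1_C arrays lay above all others, over a wide range of 3.68 among themselves. The log2 fold change of shZeb1_C was 3.93 ± 0.79 (SE; 95% interval 2.16 to 5.71; limma adjusted p = 0.061), and that of shZeb1_D was 0.76 ± 0.79. The first passed the threshold under 6 of 17 alternatives, with adjusted p-values from 0.00531 (array sets taken into account) to 0.239. The lowest value is not independent support, since the array sets were drawn from these same data. The difference of shZeb1_D from shZeb1_C was -3.18 ± 0.79 (limma adjusted p = 0.132). Its receptor Xcr1 had log2 fold changes of 0.08 and -0.03 in shZeb1_D and shZeb1_C.

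Genes of NK cells were called in the same group as the high Xcl1 signals. Of 9 NK cell genes 3 rose in shZeb1_C against Scr and 0 fell (0.659% of all probe sets were called higher), namely Nkg7 by 5.93 ± 0.80, Gzmb by 4.33 ± 0.59 and Klrk1 by 1.98 ± 0.36 (SE; limma adjusted p of 0.0109, 0.0109 and 0.0432). Between the hairpins 2 of the 9 were called, both lower in shZeb1_D, where 0.542% of all probe sets were, namely Nkg7 (-5.33 ± 0.80) and Gzmb (-4.13 ± 0.59; limma adjusted p of 0.0189 and 0.0154). The summed linear signal of the 9 genes ran from 633 to 34790 in shZeb1_D, from 7172 to 13231 in shZeb1_C and from 1766 to 12596 in Scr. The highest sum was that of shZeb1_D array 14 and came mostly from Gzma, which had log2 signals of 7.40, 15.06 and 7.82 in shZeb1_D, of 11.94, 12.33 and 11.58 in shZeb1_C and of 10.25, 13.58 and 11.70 in Scr. Over all 9 arrays, Gzma, Gzmb and Klrk1 averaged at or above the median level. The other 6 genes, Ncr1 and Eomes among them, averaged below it. By group, 4 of the 9 genes averaged at or above it in shZeb1_C, 2 in shZeb1_D and 2 in Scr. Nkg7 averaged 10.52 in shZeb1_C, 5.19 in shZeb1_D and 4.58 in Scr. The part of NK cell genes in the Xcl1 values was not tested, and the calls of NK cell genes were not tried under the alternatives.

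Ccr4, a T cell receptor for Ccl17 and Ccl22, was chosen after its values were seen. It had signals of 6.09, 6.75 and 6.14 in shZeb1_D, of 6.50, 6.18 and 7.02 in shZeb1_C and of 5.45, 5.02 and 5.21 in Scr. Every array of both hairpins lay above every Scr array, with log2 fold changes of 1.10 ± 0.26 in shZeb1_D (limma adjusted p = 0.111) and 1.34 ± 0.26 in shZeb1_C (limma adjusted p = 0.0529). The adjusted p over the alternatives ran from 0.0279 to 0.382 in shZeb1_D and from 0.0111 (array sets taken into account) to 0.199 in shZeb1_C. Its ligand Ccl17, also chosen after its values were seen, lay under Scr on all arrays of both hairpins, with log2 fold changes of -0.41 and -0.35 (limma adjusted p of 0.33 and 0.616).

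Ccr8, a receptor of regulatory and Th2 T cells, lay above the median level on all 9 arrays, with signals of 12.97 to 14.50 in shZeb1_D, 13.79 to 14.10 in shZeb1_C and 13.52 to 14.71 in Scr. The groups overlapped, and the log2 fold changes were -0.57 ± 0.41 and -0.36 ± 0.41. Cx3cr1, the fractalkine receptor, had signals of 7.72, 7.29 and 7.17 in shZeb1_D, of 7.90, 8.50 and 7.39 in shZeb1_C and of 9.03, 7.70 and 8.71 in Scr. Its log2 fold change in shZeb1_D was -1.09 ± 0.38 (limma adjusted p = 0.252), with shZeb1_D array 13 just inside the Scr range. Ppbp, a platelet chemokine that binds Cxcr2 and was also chosen after its values were seen, had log2 fold changes of 0.44 ± 0.52 in shZeb1_D and 1.90 ± 0.52 in shZeb1_C (limma adjusted p of 0.753 and 0.189).

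**Figure D5:**
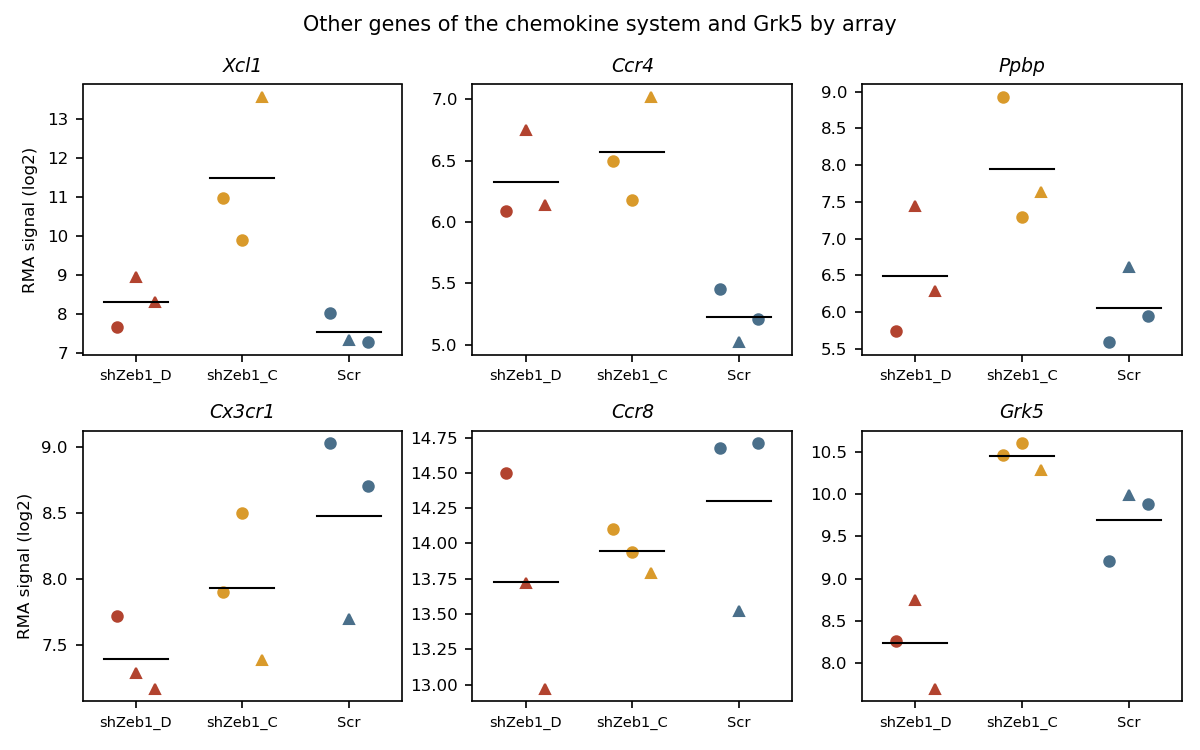
Log2 RMA signal of 5 further chemokine system genes and of Grk5 on every array (points; the horizontal bar is the group mean of 3 arrays; triangles mark shZeb1_D 14 and 15, shZeb1_C 12 and Scr 8; each panel has its own vertical scale). Xcl1 is highest in shZeb1_C (9.89 to 13.57), Ccr4 lies above Scr with both hairpins, and Grk5 is lowest in shZeb1_D (7.70 to 8.75).

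The remaining ligands and receptors at or above the median level were Ccl2, Ccl6, Ccl20, Ccl21a, Ccl25, Ccl28, Cxcl16 and Cxcr6. Of these only Ccl21a, a ligand of Ccr7, had shZeb1_D arrays that did not overlap Scr. It averaged 9.01 ± 0.08 in shZeb1_D, 8.64 ± 0.20 in shZeb1_C and 8.39 ± 0.12 in Scr (SD, n = 3 each), with a log2 fold change of 0.62 ± 0.15 in shZeb1_D (SE; limma adjusted p = 0.121). Ccl21a, Ccl21b and Ccl21c are near-identical copies, and the probe sets of Ccl21b and Ccl21c held equal values, so they are uncertain as separate genes. Ccl20, a ligand of Ccr6, had a log2 fold change of 0.58 ± 0.30 in shZeb1_D, and the other 6 genes had values between -0.17 and 0.22 there. In shZeb1_C the log2 fold changes of all 8 lay between -0.24 and 0.37.

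The partner ligands of the receptors, named here for their role, gave no call either. Cxcl12, the ligand of Cxcr4, averaged 6.40 ± 0.34 in shZeb1_D, 6.60 ± 0.20 in shZeb1_C and 6.53 ± 0.21 in Scr (SD, n = 3 each). Ccl2, the ligand of Ccr2, had log2 fold changes of 0.15 ± 0.28 in shZeb1_D and 0.37 ± 0.28 in shZeb1_C. Those of Cxcl9 and Cxcl11, which bind Cxcr3, were 0.04 and -0.21 in shZeb1_D and 0.17 and -0.26 in shZeb1_C.

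Of 25 measured genes that act below chemokine receptors, 0 were called in shZeb1_D or in shZeb1_C against Scr, where 0.843% and 0.945% of all probe sets were. At an unadjusted p under 0.05 there were 4 and 3, where the shares of all probe sets were 13.6% and 8.77%. Between the hairpins 1 of 25 was called, lower in shZeb1_D (0.542% of all probe sets). This was Grk5, a kinase that phosphorylates activated G protein-coupled receptors, with signals of 8.26, 8.75 and 7.70 in shZeb1_D, of 10.46, 10.60 and 10.28 in shZeb1_C and of 9.21, 9.99 and 9.88 in Scr. The shZeb1_D arrays lay under all Scr arrays and the shZeb1_C arrays above them. The difference of shZeb1_D from shZeb1_C was -2.21 ± 0.29 (SE; limma adjusted p = 0.0109, and 0.0544 without shZeb1_C array 10). Against Scr the log2 fold changes were -1.46 ± 0.29 in shZeb1_D (limma adjusted p = 0.0667) and 0.75 ± 0.29 in shZeb1_C (limma adjusted p = 0.444). Rgs18, which speeds the shut-off of G proteins and was chosen after its values were seen, had log2 fold changes of 1.82 ± 0.72 and 3.37 ± 0.72 (limma adjusted p of 0.314 and 0.0777).

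Cxcl10 is a target of interferon signalling, and Ccl3 and Ccl4 are targets of NF-kB. Of 14 genes induced by interferon, 2 were called in shZeb1_C, both higher (0.659% of all probe sets were): the RNA sensor Ddx58 by 2.09 ± 0.18 and the GTPase Gbp2 by 1.16 ± 0.16 (SE; limma adjusted p of 0.00144 and 0.0123). In shZeb1_D 0 of the 14 were called (0.843% of all), with 2 at an unadjusted p under 0.05 (13.6% of all). Of 11 NF-kB target genes 1 fell in shZeb1_D (0.445% of all probe sets were called lower), the cytokine Tnf, with a log2 fold change of -2.10 ± 0.35 (SE; limma adjusted p = 0.0326), and 0 were called in shZeb1_C, with 3 at an unadjusted p under 0.05 (8.77% of all). In shZeb1_D 5 of the 11 had positive and 6 negative log2 fold changes. The part of these genes in the chemokine values was not tested, and their calls were not tried under the alternatives.

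Over the 9 arrays, the genes most like Ccl3 among 5590 genes at or above the median level with a range of at least 1 were Slc30a3, Klrb1 and Pemt (Pearson r of 0.92, 0.91 and 0.91). Those most like Cxcr4 were Fyb, Rnf25 and Rb1 (r of 0.89, 0.87 and 0.86). The 9 points include the group means and the pattern shared by the 4 arrays, and no other of the 10 genes met both limits. Ccl3 met the level limit (mean of 7.20 against 7.10) only through shZeb1_D, at 7.93, with 6.94 in shZeb1_C and 6.72 in Scr. Ccr2, at 8.12 in Scr and 4.91 in shZeb1_D, missed it with a mean of 6.36. The list for Ccl3 therefore depends on the group where Ccl3 is high, and is a description only.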

How the data were processed

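Biotin-labelled total RNA of 9 samples was hybridised to 1-colour arrays. The submitters' processing notes name RMA and Transcriptome Analysis Console, and no genome build is given in the sources used here. The deposited values were linear RMA intensities written without their decimal point. For each of 199854 cells exactly 1 place of the point made log2 a multiple of 0.01 (tolerance 1e-06 steps, nearest rejected place 0.036 steps). Precision is limited by the number of arrays. Symbols came from the platform annotation, updated by gene identifier in RefSeq (GRCm38.p6), and all 19572 named probe sets matched. Another 2634 were unnamed. The highest-mean probe set stood for a gene. All 19572 were tested with limma 3.58.1 in R 4.3.3 (a mean per group, all 9 arrays, empirical Bayes, Benjamini-Hochberg per comparison, called under 0.05). Single genes also had exact permutation tests. The steps were tested on simulated data with known changes in shZeb1_D against Scr. The fit called 0.8% of log2 changes of 0.5, 39.2% of 1, 80% of 2 and 97.6% of 4. The simulated noise was independent between genes and lacked the pattern that the real arrays shared, so these shares may not hold for the real arrays. A gene that was not called may therefore still differ. By rule, the genes named were the 10 members, Zeb1, called genes of the lists, other chemokine genes above the median level and, for members with a range of at least 1 above it, the 3 most alike genes. Outside the rule, Ccr4, Ccl17, Ppbp, Rgs18 and Gzma were named after their values were seen, and partner ligands and receptors, genome neighbours and lineage markers for their role. The members and lists were chosen with earlier results of these data known. Alternatives covered unnamed and dim probe sets, normalization, variance prior, array weights, arrays in the fit, array sets, threshold and leaving out each array.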

Additional observations from a re-analysis of the deposited data

Results flagged for a closer look

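With 3 arrays per group no single array was tested as standing apart. In the genes that act below chemokine receptors and the interferon-stimulated genes, the effects of the hairpins against Scr differed by the direct limma test for 2 genes. Grk5 was lower in shZeb1_D than in shZeb1_C by a log2 difference of -2.21 ± 0.29 (SE; adjusted p = 0.0109), with shZeb1_D under Scr on 3 of 3 arrays and shZeb1_C above Scr on 3 of 3. Ddx58 differed by -1.58 ± 0.18 (adjusted p = 0.00665), with log2 fold changes against Scr of 0.51 in shZeb1_D and 2.09 in shZeb1_C. Of the 10 chemokine and receptor genes, 0 met this test (0.848% of all probe sets did), and 1 had an unadjusted p under 0.05 (11.7% of all).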

How the results depend on the processing

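Of 492 values of the 10 genes under alternatives, 464 kept their direction and side of the threshold. Another 6 newly passed it, all for Ccr2, and 22 changed sign, all for fold changes of at most 0.32. Of the 30 fold changes, 10 changed sign under at least 1 alternative and 20 kept it under all. None was called in the main fit, so staying on the same side says little for those far from the threshold. Genes called among the 10 in shZeb1_D against Scr numbered 1 (Ccr2) with array weights (-3.41, adjusted p = 0.04), with the arrays of both groups alone and with array sets as a covariate, and 0 to 1 when leaving out each array (1 without shZeb1_C array 10 or 12); in shZeb1_C they numbered 0 to 1 (1 without shZeb1_C array 10), and between the hairpins 0. Among the other 53 chemokine genes, array weights called 5 in shZeb1_D and 3 in shZeb1_C, and array sets as a covariate called 1, 3 and, between the hairpins, 1. In shZeb1_C the count was 1 without dim probe sets (11 tested), 1 after quantile normalizing again, 2 with a trended robust prior, 2 at an adjusted p under 0.1 and 0 to 1 when leaving out each array (1 without shZeb1_C array 11 or 12 or shZeb1_D array 14). The counts over all probe sets without dim probe sets, after quantile normalizing again and with that prior are not given here. Those chemokine counts therefore have no share beside them and are not read as a result about these genes. Over all 19572 probe sets the counts in shZeb1_D, in shZeb1_C and between the hairpins were 165, 185 and 166 in the main fit. Array weights and array sets raised them across the array, to 1076, 572 and 833 with array weights and to 772, 875 and 700 with array sets. At an adjusted p under 0.1 they were 300, 316 and 313. They were 68 in shZeb1_D and 81 between the hairpins with only the arrays compared. Leaving out each array they ran from 14 (without Scr array 9) to 213 (without shZeb1_C array 12), from 43 (without Scr array 9) to 214 (without shZeb1_D array 13) and from 49 (without shZeb1_D array 15) to 162. The sign turned for Cxcl10 in shZeb1_D with array sets (0.0433), for Cxcr3 in shZeb1_C after quantile normalizing again (-0.0209), with medians subtracted (-0.0667) and with array weights (-0.0795), for Ccl4 in shZeb1_C with medians subtracted (-0.0067) and for Ccl5 between the hairpins with array weights (-0.0767). Leaving out arrays, sign turns gave ranges in shZeb1_D of -0.67 to 0.29 for Cxcr4, -0.197 to 0.0783 for Ccr1, -0.0067 to 0.253 for Ccl4, -0.085 to 0.03 for Cxcl10 and -0.035 to 0.815 for Ppbp. In shZeb1_C they were -0.20 to 0.76 for Cxcr4, -0.065 to 0.08 for Cxcr3 and -0.01 to 0.445 for Ccl3, and between the hairpins -0.07 to 0.19 for Ccl4 and -0.0517 to 0.198 for Ccl5. The causes were not tested. The array sets were drawn from the values tested, so calls with that covariate are not independent support. No paired analysis was possible because the groups share no replicate numbers. The next probe set per gene was not run, since each of the 10 genes had 1. Alternatives for single genes covered only the 10 genes, Xcl1, Ccr4, Ppbp, Cx3cr1 and Grk5. The calls of Zeb1, Nkg7, Gzmb, Klrk1, Ddx58, Gbp2 and Tnf were not tried under them. Signals near the bottom of the array limit Ccl5, Cxcl10 and Ccr1, and Ccr2 in shZeb1_D and on shZeb1_C array 12.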

Other observations

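Several of these genes lie beside each other in the genome, so the nearest measured genes in RefSeq order were read for each comparison with Scr. Ccr2 lies between Ccr3 and an unnamed cDNA gene, 2010315B03Rik. Their log2 fold changes were 0.08 ± 0.30 and 0.36 ± 0.27 (SE) in shZeb1_D and -0.50 ± 0.30 and -0.06 ± 0.27 in shZeb1_C, against -3.21 ± 0.79 and -2.08 ± 0.79 for Ccr2. Ccl3 lies between Ccl6 (0.22 ± 0.21 in shZeb1_D) and Ccl4 (0.13 ± 0.16), against 1.21 ± 0.38 for Ccl3. Cxcr2 lies beside Cxcr1, a receptor of the same family, which had -0.01 ± 0.16 in shZeb1_D, against 0.56 ± 0.16 for Cxcr2. None of these genes was called by limma, and the differences between neighbours were not tested.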
